A study of Mus musculus with 49 samples.

Results

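Open chromatin in naive CD4 T cells was examined at the ATAC-seq peaks that the authors' annotation places in an exon away from the start of a gene, that is, every peak whose gene section reads 5' UTR Exon, CDS Exon or 3' UTR Exon. Of 86911 peaks in all, 14316 (16.5%) carried one of these labels: 8431 were labelled 5' UTR Exon, 3531 CDS Exon and 2354 3' UTR Exon. ATAC-seq cuts DNA with a transposase wherever it is not wrapped tightly in nucleosomes, so the reads in a peak measure how accessible that stretch was. The 6 libraries came from untreated naive CD4 T cells of C57BL/6 mice, 3 wild type (WT) and 3 labelled knockout (KO) for Elf4, which encodes a transcription factor of the ETS family. The labels give neither the Elf4 allele, the age of the mice nor which libraries share an animal, so p-values measure only the spread between these libraries, which may be technical. The series holds 49 samples in all, and RNA from naive CD4 cells (4 libraries labelled KO and 3 WT, also untreated C57BL/6) was used here for the genes that carry the peaks.

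Exons are the parts of a gene kept in the mature transcript. The 5' untranslated region (5' UTR) lies before the protein-coding sequence (CDS) and the 3' UTR after it. Most accessible chromatin lies at promoters, where nucleosomes are displaced and transcription factors such as ETS, SP/KLF and RUNX proteins bind, while accessible sites inside genes often act as enhancers or as alternative promoters. ETS factors, Elf4 among them, bind sequences with a GGAA core.

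Libraries held 6.19, 6.56 and 9.71 M reads in peaks (WT replicates 1, 2 and 3) and 13.7, 9.61 and 13.5 M (KO-labelled replicates 1, 2 and 3). WT replicate 1 stood apart from its group: its log values correlated at 0.962 and 0.955 with the other WT libraries over 27669 well-covered peaks, against 0.975 to 0.977 with the KO-labelled ones, while WT replicates 2 and 3 correlated at 0.980. The 13 peaks with over 1000 RPM (reads per M reads in peaks) took between 3.61% (WT replicate 3) and 11.7% (WT replicate 1) of a library's reads. RPM of a peak are given after scaling by the trimmed mean of M values (TMM). The T cell label was checked at peaks labelled TSS, the authors' mark for the start of a gene. Start peaks were listed for 25 of 26 genes of naive CD4 identity and T cell receptor signalling, with a summed 1505 to 1703 RPM. Of 9 B cell genes 3 had one (Pax5, Ebf1 and Cd22), with 7.75 to 10.6 RPM, and none was listed for Cd79a or Ms4a1. Of 11 myeloid genes 3 had one (Itgam, Cd68 and Cebpa, 11.6 to 18.5 RPM), and none was listed for Lyz2 or Csf1r. Of 7 CD8 and NK genes 3 had one (Cd8b1, Klrd1 and Eomes, 44.2 to 52.7 RPM), and none was listed for Cd8a or Ncr1.

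Few exon-labelled peaks held a known start, and the labels largely set this, since starts have a label of their own. Within 1 kb of a start peak of any gene lay 17.1% of the 5' UTR Exon peaks, 25.6% of the CDS Exon peaks and 3.70% of the 3' UTR Exon peaks. A RefSeq start (GRCm38.p6, the same coordinates as the mm10 of the files) lay inside 42 of the 8431 peaks labelled 5' UTR Exon (0.498%), 43 of the 3531 labelled CDS Exon (1.22%) and 6 of the 2354 labelled 3' UTR Exon (0.255%), against 39.7% of the peaks labelled TSS. Whole RefSeq promoter windows, 300 bases from 250 before to 50 after a start, lay inside 12, 20 and 4 exon-labelled peaks. Such windows are the only sequence of these peaks used here, and the ones that hold the ETS motif CCGGAAGT, searched on both strands, are shown as 30 bases each because Elf4 belongs to that family. Capitals mark the motif, either as such or as its reverse complement ACTTCCGG.
Frrs1: ccggagccaagCCGGAAGTtgctcaggctg
Psmc2: ggcgcggagctACTTCCGGtggggaagaga
Lmx1b: agtttccgatcCCGGAAGTagcagctggtg
The first lies at chr3:116861665-116861694 (+ strand) in a peak labelled 5' UTR Exon of Frrs1, a ferric reductase gene. The second lies at chr5:21786711-21786740 (+ strand) in a peak labelled CDS Exon of Psmc2, which encodes an ATPase of the proteasome. The third, at chr2:33639513-33639542 (+ strand), is in a CDS Exon peak of the LIM homeobox gene Lmx1b, and the RefSeq start beside it belongs to a predicted gene model. Among all windows inside a peak of each label, the ETS motif was present in 8.33% of 12 (5' UTR Exon), 9.52% of 21 (CDS Exon) and none of 4 (3' UTR Exon), beside 10.2% of the 9751 windows inside TSS peaks and 3.89% of all 32817 windows. The SP/KLF motif GGGCGGG was in 4, 9 and 1 of the exon windows, or 33.3%, 42.9% and 25.0%, against 52.5% in TSS peaks and 25.6% overall. Matches of the motifs may overlap each other, and these exon windows are too few to rank the labels.

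These 3 peaks were open in every library. The Frrs1 peak had 18.2, 18.8 and 21.7 reads per kb of peak per M reads in peaks, called read density below, in WT and 16.5, 16.9 and 20.5 in the KO-labelled libraries. The Psmc2 peak had 35.8, 31.2 and 38.8 against 34.7, 38.5 and 32.8. The Lmx1b peak was low, at 5.24, 4.33 and 4.39 against 6.36, 8.02 and 5.55. Its groups did not overlap by this density, which uses raw totals. After TMM scaling WT replicate 1 lay above KO-labelled replicate 3, so the groups overlapped.

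Distance set the 3 labels apart. The median distance from a peak to the nearest start peak of its own gene was 10894 bases for 5' UTR Exon, 6170.5 for CDS Exon and 32955.5 for 3' UTR Exon, among the 89.6%, 73.0% and 84.0% of peaks whose gene had a start peak. Within 1 kb of that start peak lay 17.5% of the 5' UTR Exon peaks with one, 32.4% of the CDS Exon peaks and 3.39% of the 3' UTR Exon peaks. Peaks were short, with median lengths of 273, 323 and 295 bases. In each label 45.5% to 46.9% shared a boundary with another peak, so many members are neighbouring segments of 1 accessible stretch and are not independent.

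**Figure D1:**
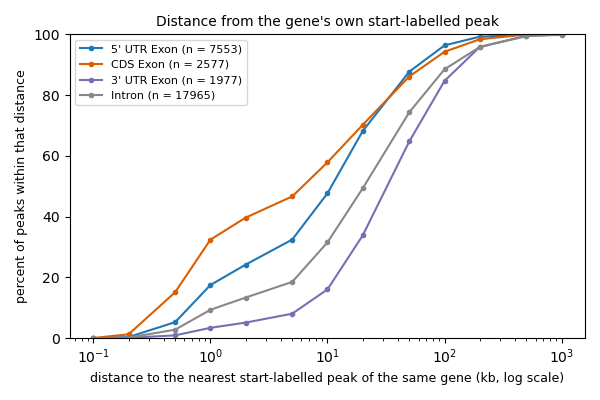
Cumulative percent of peaks (y axis) within a given distance in kb (x axis, log scale) of the nearest start-labelled peak of the same gene, for the 3 exon labels and for intron-labelled peaks. At 1 kb the CDS Exon curve stands at 32.4% and the 5' UTR Exon curve at 17.5%, and the 3' UTR Exon curve is lowest from 0.5 kb to 100 kb.

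Peaks with a UTR label could spread over most of a gene. Foxp1, a forkhead factor that holds T cells in quiescence, carried 113 peaks labelled 5' UTR Exon over 480.785 kb, and their lengths sum to 40.729 kb. Bach2, a repressor that restrains effector differentiation, carried 104 exon-labelled peaks over 242.117 kb, 103 of them labelled 5' UTR Exon. Next came Sgms1, a sphingomyelin synthase gene, with 83 (71 labelled 5' UTR Exon and 11 labelled 3' UTR Exon), the fibroblast growth factor receptor gene Fgfr2 with 69, and Inpp4b, a phosphoinositide phosphatase gene, with 63. All 69 Fgfr2 peaks lay between chr7:130415997-132898667, outside the RefSeq gene at chr7:130162451-130266808, and no TSS or intron peak was listed for it.

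Over all genes such wide spreads were not typical, but intron-labelled peaks were rare between peaks with a UTR label. In genes with at least 2 peaks of a label, the median span was 9154.5 bases for 5' UTR Exon. It was 1040 bases for CDS Exon and 1424 for 3' UTR Exon. The part of these short spans in the counts that follow was not tested. Where a gene had at least 2 peaks labelled 5' UTR Exon (1306 genes, 7574 peaks), only 73 intron-labelled peaks of the same gene lay between them, and 98.8% of the genes had none. For 3' UTR Exon peaks (490 genes, 1972 peaks) the number was 19, with none in 99.0% of the genes. For CDS Exon peaks (733 genes, 1780 peaks) it was 712, with none in 75.9%. The labels are therefore used below as the authors wrote them, and exon peak means only a peak that carries such a label. Whether these peaks overlap an exon was not tested, because no exon coordinates were used here. Of peaks matched to a RefSeq gene by symbol, 95.1%, 98.2% and 92.1% had their centre inside that gene. CDS Exon was also given to 531 peaks of genes not annotated as protein coding, 193 of them lincRNA genes and 99 antisense genes.

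**Figure D2:**
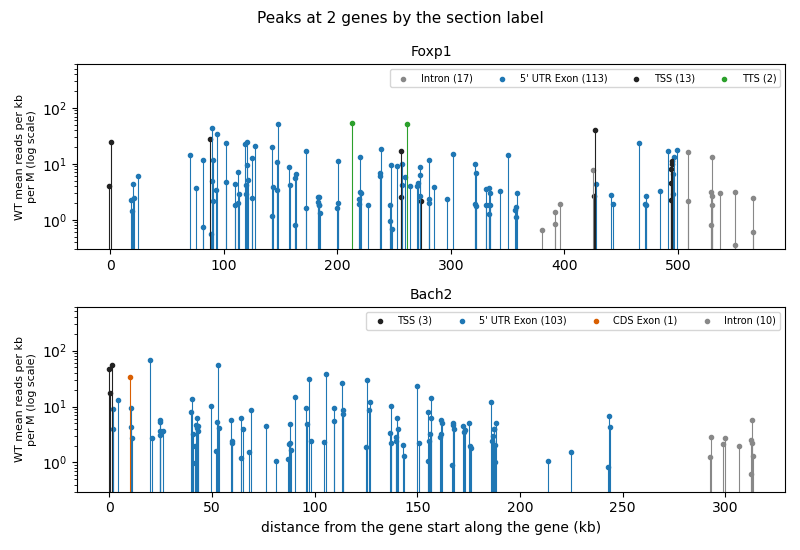
Position of every peak annotated to Foxp1 (top) and Bach2 (bottom) as distance from the gene start in kb (x axis) against WT mean read density (y axis, log scale), coloured by the authors' label, with the number of peaks in brackets. Peaks labelled 5' UTR Exon fill most of both genes, and intron-labelled peaks appear mainly toward the end farthest from the start.

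Exon peaks were spread unevenly over genes. Of 4765 genes with such a peak 2289 had 1, and the 244 genes with 10 or more held 4404 of the 14316 peaks. Summed over its 113 peaks, Foxp1 held 449, 506 and 499 RPM in WT and 510, 396 and 474 in KO-labelled libraries. Bach2 held 457, 531 and 499.9 against 553, 406 and 493, and Sgms1 346, 416 and 403 against 419.7, 331 and 373. In these genes KO-labelled replicate 2 was the lowest library of its group, and the groups overlapped. Fgfr2 ran the other way, with 256, 268 and 265 against 259.6, 295 and 264, where KO-labelled replicate 2 was highest.

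Read density was low and differed by label in every library. Median density of CDS Exon peaks was 3.88, 3.81 and 3.81 in WT and 3.82, 4.22 and 3.96 in KO-labelled libraries. For 5' UTR Exon peaks it was 3.16, 3.48 and 3.41 against 3.33, 3.28 and 3.26, and for 3' UTR Exon peaks 3.03, 3.08 and 3.01 against 3.03, 3.18 and 3.08. All 3 lay far under the peaks labelled TSS (10.6 to 11.9). Both UTR labels lay near the intron-labelled peaks (3.20 to 3.31). CDS Exon lay above these and near the peaks labelled TTS, for the end of a gene (3.81 to 4.13), with intergenic peaks at 3.57 to 3.83. CDS Exon was the densest of the 3 labels and 3' UTR Exon the least dense in 6 of 6 libraries.

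The log2 ratio of median density was -0.24 ± 0.090 for 5' UTR Exon over CDS Exon, 0.11 ± 0.060 for 5' UTR Exon over 3' UTR Exon and 0.35 ± 0.033 for CDS Exon over 3' UTR Exon (SD over 6 libraries). Each had p = 0.03125 in a two-sided exact paired permutation test over the 6 libraries, which is the smallest p that 6 libraries can give, and 0.03125 after adjustment over the 3 pairs. The libraries share the peaks, so these p-values speak of libraries and not of other sets of peaks. Among peaks at least 1 kb from any start peak the ratios were -0.33, 0.15 and 0.48. Their differences between KO-labelled and WT libraries were -0.082, -0.050 and 0.031 (p = 0.3, 0.3 and 0.4 by exact permutation, adjusted p = 0.4 each, with 0.1 the smallest that 3 against 3 allows).

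Within the coding label, peaks in coding exon 1 were less dense than later ones. The 1084 peaks labelled coding exon 1 had median densities of 3.05 to 3.38 over the 6 libraries and a median length of 230.0 bases. The 692 in exon 2 had 4.07 to 4.46, the 1192 in exons 3 to 9 had 4.06 to 4.68, and the 563 in exon 10 or later had 4.25 to 4.88. The ranges of coding exon 1 and of the later bins did not overlap. Peaks of the later bins were longer, with median lengths of 333, 368.5 and 382 bases. Where the gene had a start peak, the median distance to it was 616 bases for exon 1. It was 3501, 15522 and 38297 bases for the later bins. The part of length and of this distance in the densities was not tested.

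**Figure D3:**
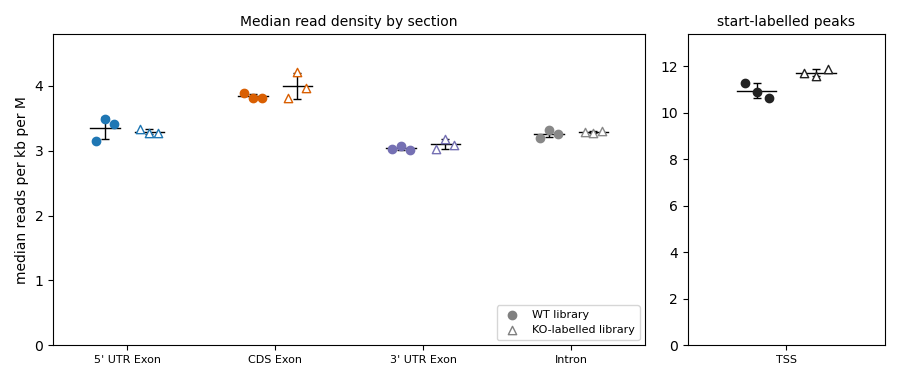
Median reads per kb of peak per M reads in peaks (y axis, from 0) for each library, by the authors' label (x axis), with WT as filled circles, KO-labelled as open triangles, and mean and SD as bars. CDS Exon points lie above 5' UTR Exon and 3' UTR Exon points in both groups, and the TSS panel has its own scale.

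The densest exon peaks lay above the upper quartile of TSS peaks, which was 39.8 to 43.1 over the 6 libraries. Among 5' UTR Exon peaks these were Filip1l (chr16:57391128-57391676, 173 ± 35.8 in WT, mean and SD, n = 3, against 129.9 ± 11.3 KO-labelled), Sin3a, the scaffold of a histone deacetylase corepressor (165 ± 11.6 against 150.1 ± 2.07), and Rara, the retinoic acid receptor alpha gene (124 ± 11.3 against 120.3 ± 1.98). Among CDS Exon peaks they were Angptl6, an angiopoietin-like secreted factor (147 ± 10.6 against 151 ± 2.04), the ceramidase gene Acer2 (101 ± 3.91 against 103 ± 8.92) and the scaffold gene Strn (100.1 ± 6.25 against 91.8 ± 4.95). The Strn peak is one of those that hold a RefSeq start, its own, and no TSS peak was listed for Strn or Angptl6. Angptl6 transcripts were at 0.608 ± 0.140 CPM (counts scaled to library depth by the authors) in WT, and its peak was the densest CDS Exon peak of a named gene.

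Of 3' UTR Exon peaks the densest were a pair at Mid1, a microtubule-associated ubiquitin ligase gene (126 ± 20.4 against 128 ± 16.3, and 81.0 ± 11.5 against 77.7 ± 16.7), and one at Eipr1 (72.0 ± 9.91 against 76.3 ± 13.0). Both Mid1 peaks lay outside the RefSeq gene. Filip1l stood at 127, 92.4 and 76.0 TMM-scaled RPM in WT and 78.1, 68.9 and 68.6 in KO-labelled libraries, with WT replicate 1 far above the rest and an overlap between groups (log2 fold change -0.44 ± 0.14 SE, adjusted p = 0.349 by edgeR's quasi-likelihood test).

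T cell genes held many exon peaks. Of 26 genes of naive CD4 identity and T cell receptor signalling 18 had at least 1, with 291 peaks (256 labelled 5' UTR Exon, 21 CDS Exon and 14 3' UTR Exon), and Foxp1 and Bach2 held most of them. S1pr1, the receptor that lets naive T cells leave lymph nodes, had 3 exon peaks and no TSS peak. The most read were a 3' UTR Exon peak of Lef1, a factor of the TCF/LEF family (90.7, 77.1 and 86.5 RPM in WT against 96.2, 85.9 and 88.1), and 5' UTR Exon peaks of Bach2 (77.6, 82.4 and 75.6 against 88.2, 64.4 and 74.8), Foxp1 (72.8, 81.7 and 73.8 against 72.0, 56.1 and 68.2) and Cd4 (59.5, 58.2 and 62.2 against 53.4, 53.1 and 52.4). Lef1 and Bach2 overlapped between groups. In Foxp1 and Cd4 every KO-labelled library lay below every WT library, with log2 fold changes of -0.21 ± 0.09 and -0.18 ± 0.07 and adjusted p of 0.482 and 0.454.

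Lists of other states held few exon peaks. Effector and activated T cell genes had 20 in 6 of 29 genes, led by a CDS Exon peak of Irf4, a factor of activated lymphocytes (25.4, 30.7 and 28.3 against 28.3, 24.2 and 21.7), and one of Cd69, an early activation marker (27.4, 26.4 and 26.1 against 28.1, 19.4 and 23.9). Irf4 transcripts were at 2.19 CPM in WT and those of Cd69 at 39.3. Of these 29 effector and activated genes 21 had a TSS peak, with a summed 1322 to 1375 RPM over the 6 libraries. Few exon peaks thus does not mean that their starts were closed. B cell genes had 0 exon peaks, myeloid genes 2 (both at Itgam) and CD8 and NK genes 1 (at Eomes, 0.175 to 1.31 RPM). The erythroid list had 1, a CDS Exon peak of Klf1, the red-cell Krüppel-like factor gene, at 53.3, 67.6 and 68.0 RPM in WT and 62.3, 63.5 and 64.6 in KO-labelled libraries. Klf1 transcripts stood at 0.0849 CPM in WT. In the erythroid list Gata1 had a TSS label, with a summed 0.155 to 1.49 RPM over the 6 libraries. No TSS peak was listed for Klf1, Hbb-bs or Hba-a1.

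ETS genes carried 104 exon peaks in 10 of 18 genes, 93 of them labelled 5' UTR Exon. Elf1, a close relative of Elf4, had 24, and the most read was at 34.7, 43.1 and 41.4 RPM against 48.9, 31.3 and 42.3. Elk4, a partner of serum response factor, had a peak at 41.2, 53.5 and 42.4 against 60.5, 39.7 and 46.4. Groups overlapped in both. A peak of Fli1 near its start (chr9:32539414-32540564) had 37.2, 35.7 and 36.6 against 30.7, 28.3 and 29.1, with every KO-labelled library below every WT library (-0.31 ± 0.09, adjusted p = 0.336), while another Fli1 peak (chr9:32495403-32496267) overlapped between groups, at 29.3, 36.3 and 35.0 against 33.5, 33.0 and 38.2.

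Elf4 itself remained accessible in the libraries labelled KO. It had 3 TSS peaks and 20 peaks labelled 5' UTR Exon between chrX:48424305-48462579, which is inside the RefSeq gene (chrX:48411049-48463132). The main TSS peak held 195, 207 and 395 reads in WT and 558, 344 and 478 in KO-labelled libraries, or 34.2, 32.1 and 39.7 against 40.6, 36.6 and 35.7 RPM. The most read 5' UTR Exon peak (chrX:48424415-48425260) held 14.0, 16.6 and 15.4 RPM against 15.4, 10.8 and 14.5 (-0.17 ± 0.16, adjusted p = 0.777). Elf4 RNA stood at 191 ± 4.87 CPM in WT (n = 3) and 189 ± 13.8 in KO-labelled libraries (n = 4), and these are other libraries than the ATAC-seq ones. The groups overlapped at these 2 peaks and in the RNA, and since the labels do not say which stretch of the gene was targeted, these values are no check of the KO label.

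Summed over its 20 exon-labelled peaks, Elf4 held 50.7, 54.3 and 51.8 RPM in WT and 46.4, 39.6 and 48.1 in KO-labelled libraries, and the groups did not overlap. Of these peaks 8 had enough reads to be tested, with log2 fold changes from -1.02 to 0.79 and a median of -0.23, and none passed the threshold (lowest adjusted p = 0.349). The lowest was at chrX:48432581-48433042, with 5.09, 3.41 and 3.01 RPM against 2.11, 2.24 and 1.27, and the highest at chrX:48442120-48442763, with 1.58, 1.09 and 1.11 against 2.55, 1.70 and 2.09.

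No exon peak changed between the groups in edgeR's quasi-likelihood test, in which 0.00851% of all 47000 peaks tested passed an adjusted p of 0.05 (4 peaks, 3 higher and 1 lower, all labelled TSS). Of the exon peaks 3689 of 8431 (5' UTR Exon), 1904 of 3531 (CDS Exon) and 1039 of 2354 (3' UTR Exon) had enough reads to be tested, and the lowest adjusted p among them was 0.163. DESeq2 called 2, Rhobtb1 and Rbl1, both higher (432 exon peaks at an unadjusted p below 0.05), beside 0.203% of all peaks to which it gave an adjusted p. This rests on WT replicate 1: without it 121 of 7246 exon peaks passed, 34 higher and 18 lower with the 5' UTR label, 53 and 3 with the CDS label, and 8 and 5 with the 3' UTR label, where 3.76% of all peaks passed as higher and 0.375% as lower. In that fit 0.837% of the 5' UTR Exon, 2.60% of the CDS Exon and 0.699% of the 3' UTR Exon peaks were higher, and 0.443%, 0.147% and 0.437% were lower.

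At an unadjusted p below 0.05, 576 of the 6632 exon peaks tested stood apart. With the 5' UTR label 108 were higher (2.93%) and 208 lower (5.64%), with the CDS label 133 higher (6.99%) and 51 lower (2.68%), and with the 3' UTR label 43 higher (4.14%) and 33 lower (3.18%), where 5.95% of all peaks were higher and 3.93% lower. The 5' UTR label thus had more peaks lower than higher and the CDS label more higher than lower, but neither split was tested. Peaks labelled TSS also had more higher (9.46%) than lower (4.05%), and intron-labelled peaks had 3.88% and 3.69%. Among tested CDS Exon peaks within 1 kb of any start peak (314) 35 were higher and 7 lower, and beyond it (1590) 98 and 44. The 5' UTR split rests on KO-labelled replicate 2, without which 116 were higher and 117 lower. Without WT replicate 1 it was 175 and 266, without KO-labelled replicate 1 it was 69 and 248, and without KO-labelled replicate 3 it was 78 and 130. With the CDS label more peaks were higher than lower whichever library was left out, with 105 and 69 without WT replicate 3 and 83 and 44 without KO-labelled replicate 3. Groups did not overlap at 190 and 338 (higher and lower) of the 5' UTR Exon peaks, 183 and 129 of the CDS Exon peaks and 76 and 61 of the 3' UTR Exon peaks, beside 7.52% and 7.74% of all peaks. Median log2 fold changes were -0.048, 0.022 and 0.0017, beside -0.0070 over all peaks tested.

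**Figure D4:**
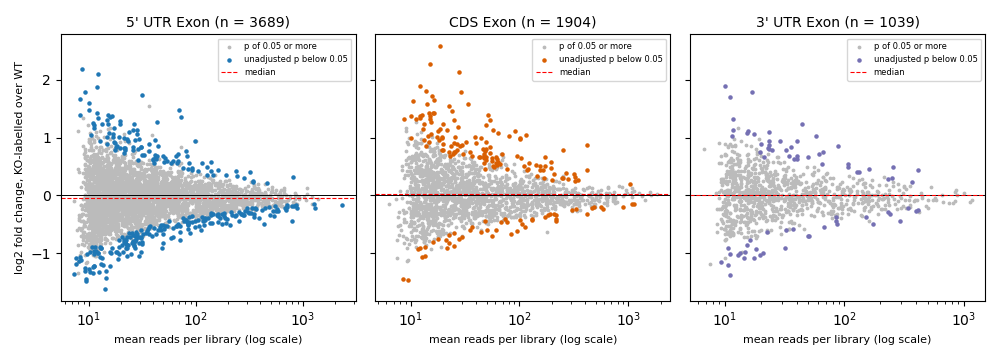
Log2 fold change of KO-labelled over WT libraries (y axis) against mean reads per library (x axis, log scale) for every tested exon peak, 1 panel per label, with coloured points at an unadjusted p below 0.05 and the median as a dashed line. More coloured points lie below 0 with the 5' UTR label (208 against 108, but 117 against 116 without KO-labelled replicate 2) and above 0 with the CDS label (133 against 51).

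The share of a library's reads in exon peaks did not separate the groups either. Peaks labelled 5' UTR Exon took 2.80%, 3.13% and 3.28% of reads in peaks in WT and 3.19%, 2.77% and 2.98% in KO-labelled libraries, a difference of -0.088 percentage points. CDS Exon peaks took 1.59%, 1.70% and 1.78% against 1.78%, 1.67% and 1.72% (0.036 points), and 3' UTR Exon peaks 0.684%, 0.755% and 0.786% against 0.785%, 0.704% and 0.739% (0.0015 points). The two-sided exact permutation tests gave p = 0.7, 0.6 and 1.0, each 1.0 after adjustment over the 3. In all 3 labels WT replicate 1 was the lowest WT library, the one with the largest share of reads in the 13 highest peaks, and the part of those peaks in the differences is given by leaving them out: -0.13, 0.016 and -0.0083 points.

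Peaks with the lowest p were picked after their values were seen, 3 in each direction per label, and none passed the threshold over all libraries. They were taken from peaks with no overlap between groups and a mean of at least 20 reads over the libraries. Single libraries could hold fewer, as at Ctnnd2 with 14 and 13 reads in WT replicates 1 and 2. Higher in KO-labelled libraries was first a peak labelled coding exon 22 of Rbl1, the p107 member of the retinoblastoma family (chr2:157147417-157148155), with 12.6, 20.5 and 18.5 RPM in WT against 29.3, 27.5 and 33.3 (0.79 ± 0.15, adjusted p = 0.163). Its own start peak stood at 0.047. A 5' UTR Exon peak of Ctnnd2, a delta-catenin gene of neurons, had 2.46, 2.02 and 2.61 against 5.31, 7.03 and 5.01 (1.26 ± 0.25, adjusted p = 0.187), and one of Rhobtb1 had 5.62, 7.60 and 6.23 against 10.6, 12.7 and 14.0 (0.94 ± 0.19). A 3' UTR Exon peak of the cell polarity gene Pard3b had 3.86, 3.72 and 3.32 against 6.98, 7.88 and 7.17 (1.02 ± 0.21). In each of these the lowest KO-labelled library lay above the highest WT library. The others were Zbtb38 (0.32) with the 5' UTR label, the decapping gene Dcp1b (1.21) and the kinase gene Hunk (0.58) with the CDS label, and Tshz2 (0.85) and Ttc7 (0.94) with the 3' UTR label.

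Lower in KO-labelled libraries were 5' UTR Exon peaks of the Wnt ligand gene Wnt5b (48.8, 55.7 and 56.9 against 42.7, 32.9 and 38.6 RPM, -0.50 ± 0.11, adjusted p = 0.225), of Tcf7, which encodes the T cell factor TCF1 (30.2, 32.9 and 29.6 against 23.9, 20.3 and 23.5, -0.45 ± 0.11, adjusted p = 0.298), and of the chromatin remodeller gene Chd2 (-0.50 ± 0.13). With the CDS label they were the adenylyl cyclase gene Adcy1 (10.0, 12.1 and 11.2 against 7.49, 6.82 and 6.502, -0.68 ± 0.17), the sialyltransferase gene St3gal2 (-0.32) and Bcdin3d (-0.44). With the 3' UTR label they were Pigk, of the GPI transamidase (30.4, 38.9 and 36.8 against 27.0, 24.0 and 26.7, -0.45 ± 0.11), Zcwpw2 (-0.49) and Nsmce2 (-0.71). The Pigk and Zcwpw2 peaks lay outside the RefSeq gene of that name. Without WT replicate 1, 15 of these 18 peaks passed edgeR's threshold (adjusted p from 0.000647), and Bcdin3d, Ttc7 and Zcwpw2 did not. In that fit 1.67% of all exon peaks tested passed. The 18 were picked by p in these same libraries, so their passing is no further support for them.

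**Figure D5:**
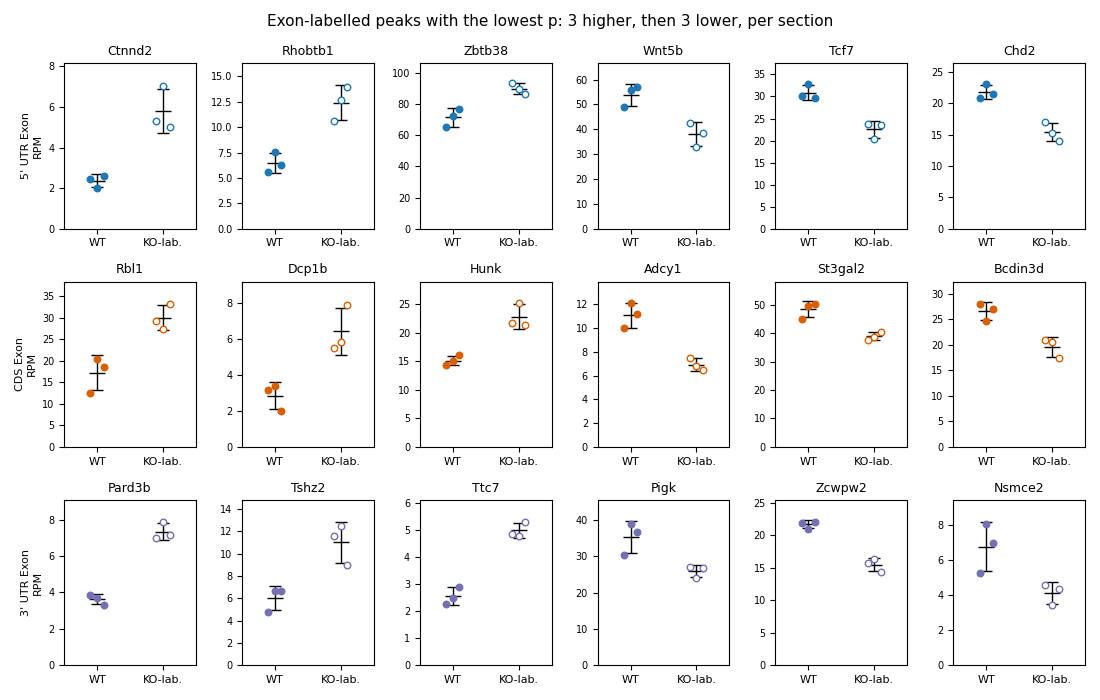
TMM-scaled RPM (y axis, from 0, own scale per panel) in each WT (filled) and KO-labelled (open, KO-lab.) library, with mean and SD, for the 18 peaks picked by p among those whose groups do not overlap, 1 row per label. The first 3 panels of a row are higher in the KO-labelled libraries and the last 3 lower, and none passed the threshold over all libraries.

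At Tcf7, which keeps T cells naive and able to renew, the 12 exon peaks summed to 129, 140.4 and 137 RPM in WT and 123, 96.1 and 109 in KO-labelled libraries, with no overlap. All 8 that were tested had a log2 fold change below 0, from -0.79 to -0.12 with a median of -0.41. Of these 3 had an unadjusted p below 0.05 in edgeR's test, where 3.93% of all peaks and 5.64% with the 5' UTR label were lower. None passed the threshold. The 12 peaks lie within 17.3 kb of 1 gene and are not independent. The main TSS peak of Tcf7 stood at -0.24 (adjusted p = 0.394 by edgeR's quasi-likelihood test). Tcf7 RNA was at 883 ± 71.9 CPM in WT against 902 ± 84.3 in the libraries labelled KO. Of the 137 peaks tested in the whole naive T cell list, Tcf7 included, 60 lay above 0 and 77 below, with a median of -0.047, and 0 passed. In the ETS list 18 of 54 lay above 0, with a median of -0.10 and 0 calls. Tcf7 was singled out after its values were seen.

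Genes with UTR-labelled peaks were well transcribed in these cells. Of 2163, 2484 and 872 genes with a 5' UTR Exon, CDS Exon or 3' UTR Exon peak, 86.3%, 75.2% and 85.6% were found by name in the RNA table. Their median in WT was 15.8, 6.88 and 13.8 CPM, beside 8.35 for genes with a TSS peak and 3.30 for all genes in the table, and 81.5%, 69.3% and 82.0% reached 1 CPM, beside 62.2% of all genes. Over the 3 WT libraries the medians ranged from 15.5 to 16.2, 6.69 to 7.05 and 13.0 to 14.1 CPM. CDS Exon genes thus had the lower transcript level of the 3 and the higher read density.

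In the libraries labelled KO 4.39% of the 12903 genes tested were higher and 3.64% lower by limma (adjusted p below 0.05). Of tested genes with an intron-labelled peak 6.42% were higher and 4.23% lower, and of those with a TSS peak 5.22% and 4.35%. Of the 2933 tested genes with an exon peak 224 were higher (7.64%) and 127 lower (4.33%). By label the higher shares were 6.13%, 9.95% and 7.20% and the lower ones 4.78%, 3.77% and 3.68%, and the part of transcript level in these shares was not tested. These counts depend on single libraries: they fell to 110 and 56 without WT replicate 1 and to 143 and 64 without WT replicate 3. They fell to 135 and 60 without KO-labelled replicate 1 and to 125 and 61 without KO-labelled replicate 2. Shares over all genes in these fits are not given here, so the falls are not read as a trait of genes with exon peaks. Filip1l, with the densest 5' UTR Exon peak, was at 90.2, 81.3 and 93.6 CPM in WT and 53.9, 52.8, 64.3 and 51.0 in KO-labelled libraries (log2 fold change of CPM + 1 -0.66 ± 0.09 SE, adjusted p = 0.00096 by limma). Lef1, with the most read exon peak of the naive T cell list, was at 213, 235 and 207 CPM against 311, 287, 281 and 254 (0.37 ± 0.08, adjusted p = 0.018). Of the 18 peaks picked by p, no gene with a tested transcript passed the threshold in RNA.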

How the data were processed

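The authors deposited 1 table of expected counts, that is, estimated reads for each of 86911 peaks in 6 ATAC-seq libraries, with a gene, a gene section and coordinates per peak, and a table of CPM for the RNA libraries. Per the submitters' processing notes reads were placed on mm10, and the tools named are Bowtie2, BWA, Partek 10.0.21.0411, DESeq2 and MACS2. Whether peaks were called per library or on pooled reads is not given in the sources used here. Peaks were selected by the section label. Expected counts were rounded (58 peaks held a value that was not whole) and tested over all peaks with edgeR 4.0.16 (filterByExpr, TMM, quasi-likelihood test, two-sided, Benjamini-Hochberg adjusted p below 0.05) in R 4.3.3, with DESeq2 1.42.0 as an alternative. CPM were tested as log2(CPM + 1) with limma 3.58.1 (trend), for genes that reached 1 CPM in 3 or more libraries. Read density used raw totals per kb. Both scripts were tested on simulated data. Peak coordinates are as deposited, and abutting peaks share a coordinate. Distances run between peak centres. RefSeq positions and sequences are from GRCm38.p6 tables, matched by symbol.

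Peaks named are the 3 densest per label, all at Elf4, the most read of each gene list, the genes with the most exon peaks, and those with the lowest p, the last picked after values were seen. Predicted gene models are counted and not named. The members and the gene lists were chosen with earlier results of these data known.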

Additional observations from a re-analysis of the deposited data

Results flagged for a closer look

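Among the values named here, 1 stood out within its group of 4 samples. Dcp1b RNA in naive CD4 cells was at 17.2 CPM in 1 library labelled KO, with the other libraries of that group between 18.0 and 18.1, and the gap is set by how close those 3 lie to each other. About 1 in 20 such groups would be marked without any difference.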

How the results depend on the processing

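Counts of exon peaks past the threshold moved from 0 with DESeq2 (1 higher with the 5' UTR label and 1 with the CDS label), without a filter (1 higher, CDS) and when 1 library was left out. Leaving out 1 library in turn, the counts ranged from 0 to 34 higher and 0 to 18 lower (5' UTR), 0 to 53 and 0 to 3 (CDS) and 0 to 8 and 0 to 5 (3' UTR), every value above 0 coming without WT replicate 1. Median log2 fold changes then ranged from -0.080 to -0.010, 0.017 to 0.038 and -0.019 to 0.028, and without a filter the 3' UTR median was 0.035. Differences in the share of reads ranged from -0.22 to 0.017, -0.014 to 0.081 and -0.027 to 0.023 points, so each changed sign, and without the highest peaks the 3' UTR difference was -0.0083. Density ratios kept their sign, from -0.26 to -0.21, 0.10 to 0.13 and 0.34 to 0.36, with p = 0.0625 by the exact permutation test, the smallest that 5 libraries give. Genes with exon peaks called in RNA ranged from 110 to 261 (higher) and 56 to 173 (lower), and 280 and 212 with the replicate number as a block. Shares over all genes in these RNA fits are not given here. The cause of these shifts was not tested.

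Deviations from the group mean correlated at -0.134, -0.022 and 0.009 between ATAC-seq libraries with the same number. With 3 libraries per group and WT replicate 1 apart from its group, these values cannot tell whether the numbers mark pairs or batches. Libraries with the same number carry close identifiers in the labels. With the replicate block 0 exon peaks passed and the medians were -0.040, 0.034 and 0.0090. Thinned to the shallowest library, 5002 exon peaks could be tested and 0 passed. Depth left 7684 of 14316 exon peaks untested.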

Other observations

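Ctnnd2 and Pard3b, 2 genes singled out after their values were seen, had exon peaks higher in every KO-labelled ATAC-seq library than in any WT one. Neither peak passed the threshold (adjusted p = 0.187 each by edgeR's quasi-likelihood test). Their transcripts were close to 0 in WT RNA and present in every RNA library labelled KO. Ctnnd2 was listed at 0.0192, 0.0001 and 0.0001 CPM in WT, where 0.0001 is the lowest value of the table, and at 0.213, 0.156, 0.230 and 0.147 CPM in the libraries labelled KO. Pard3b was at 0.0192, 0.0001 and 0.0001 against 0.302, 0.331, 0.397 and 0.422. Both transcripts were too low to be tested. Other genes with a higher peak picked by p did not share this. Rbl1, Zbtb38, Dcp1b and Ttc7 were tested in RNA and none passed (adjusted p from 0.631 to 0.971 by limma). Rhobtb1, Hunk and Tshz2 had no RNA value by name. The most read start peaks of Ctnnd2 and Pard3b were low. Their means were 0.589 RPM in WT and 0.820 in KO-labelled libraries at Ctnnd2, and 0.481 and 0.824 at Pard3b. Klf1, the erythroid gene with an exon peak at 53.3 to 68.0 RPM, was at 0.0573, 0.0747 and 0.123 against 0.906, 0.273, 0.293 and 0.147 CPM. Itgam, the myeloid gene with 2 exon peaks, was at 1.37, 1.29 and 1.17 against 0.675, 0.565, 0.627 and 0.844 CPM (adjusted p = 0.033 by limma, n = 3 and 4).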
